A study of Mus musculus with 24 samples.

Results

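In the ATAC-seq table of untreated cells, strong intervals that lay close together along a chromosome were joined into stretches, and the densest of these stretches are described here. An interval is a window, nearly always of 201 bases, that the authors counted in every library, and it was called strong where its mean over the 12 untreated libraries was 100 normalized reads or more. Strong intervals with midpoints within 12.5 kb of the next on the same autosome were joined, and stretches with 5 or more were kept. This gave 2753 member intervals in 443 stretches, which is 8.63% of the 31906 strong intervals on autosomes and 0.918% of the 299780 intervals in the table. For comparison, 15940 strong intervals stood alone and 13213 were joined in stretches of 2 to 4. The members were chosen by their mean level and their spacing, so both are given as a description. The weakest member had a mean of 100.05 and the strongest interval below the threshold one of 99.999. Stretches of exactly 4 strong intervals, just outside the rule, numbered 516, and stretches of exactly 5, just inside it, numbered 211. Their intervals had median levels of 169 and 179 and median KO against WT log2 changes of -0.0770 and -0.0750 without inhibitor and of -0.166 and -0.162 with it.

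All libraries came from E14, a line of mouse embryonic stem cells kept on gelatin in serum medium with LIF, a cytokine that keeps them undifferentiated. A WT line was compared with the lines Smad2_KO1 and Smad2_KO2, which lack Smad2, a transcription factor that carries Nodal and activin signals to the nucleus. How the gene was disrupted is not given in the sources used here. Each line was grown without inhibitor (Ctrl) or with 200 nM of the mTOR inhibitor INK128 for 12 h (Paused), a treatment that slows growth and imitates the dormant state of delayed embryos. There were 4 libraries of 50000 cells in each of the 6 groups, 24 in all.

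ATAC-seq marks DNA that the transposase Tn5 can cut, which is mostly promoters, enhancers and other sites kept free of nucleosomes. Groups of strong sites packed closely are known from genes that are used constantly, from gene clusters such as those of histones and tRNAs, and from enhancer clusters near genes that set cell identity. In stem cells such enhancer clusters bind Oct4, Sox2 and Nanog, and Smad2 can be recruited to the same sites when Nodal or activin signals. A bulk value cannot tell fewer cells with an open site apart from less cutting per cell.

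Depth ranged from 11.8 to 16.5 M recovered reads in intervals per Ctrl library and from 11.5 to 20.0 M per Paused library. The Paused libraries of replicate 2 of Smad2_KO1 and Smad2_KO2, from different lines, agree within sampling noise (chi-square per degree of freedom 1.001, limit 1.0055). They were kept as separate samples, and results with the KO lines averaged are given with the limits of the data. The other same-numbered pairs of the KO lines were also close in Paused, at 1.027, 1.074 and 1.026 for replicates 1, 3 and 4. The closest pair within a KO line was at 1.111. In Ctrl the pairs of replicates 1 to 4 were at 1.072, 1.211, 1.27 and 1.016, against 1.11 or more within a KO line. The sources used here do not explain this, so a call in both KO lines may not rest on independent libraries. Without Smad2_KO1 replicate 2, 14.7% of the Paused partners of the members were called and without Smad2_KO2 replicate 2 15.5%, against 23.2% with all libraries. Over all Paused intervals these shares were 9.74%, 9.68% and 13.9%. Leaving out Smad2_KO1 replicate 1 instead gave 17.7% of the partners and 11% of all Paused intervals. No interval differed between the KO lines at an adjusted p under 0.05 in limma, and 3.28% of Ctrl and 1.97% of Paused intervals did so at an unadjusted p under 0.05. Over the body of Smad2 itself, the summed Ctrl value ranged from 401.9 to 500.9 in WT, from 443.1 to 521.0 in Smad2_KO1 and from 446.9 to 471.7 in Smad2_KO2, so accessibility there did not separate the lines and is no check of the protein. Of 10 stem cell marker genes, 8 had a strong interval at the gene. The exceptions were Pou5f1, whose strongest interval had a mean of 44.9, and Dppa5a, which had none. Strong intervals also lay at 5 of 6 primitive endoderm, 3 of 4 trophoblast, 2 of 4 fibroblast and 3 of 3 neural marker genes. Of all these markers only Sox2 lay in a dense stretch.

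The stretches were 11.1 to 143 kb long, with a median of 31.7 kb, and together covered 15.2 Mb or 0.632% of the autosomes. Neighbouring members were 6.19 kb apart at the median, with quartiles of 4.02 and 8.91 kb. Members held 4.32% to 4.58% of all normalized reads in the Ctrl WT libraries. Only 24 stretches had 10 or more members, and the largest had 27. Chromosome 17 had the highest share of its strong intervals in dense stretches with 15.0%, followed by chromosomes 7 with 13.7% and 8 with 13.6%, and chromosome 14 had the lowest with 2.12%. The X chromosome lay outside the rule, and joined in the same way it gave 2 stretches with 1.48% of its strong intervals. Levels within a stretch were uneven: the strongest member was 3.10 times the weakest at the median. That strongest member lay within 500 bases of an end of a protein-coding gene in 201 stretches (45.4%), while 21.1% of the other members did.

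**Figure D1:**
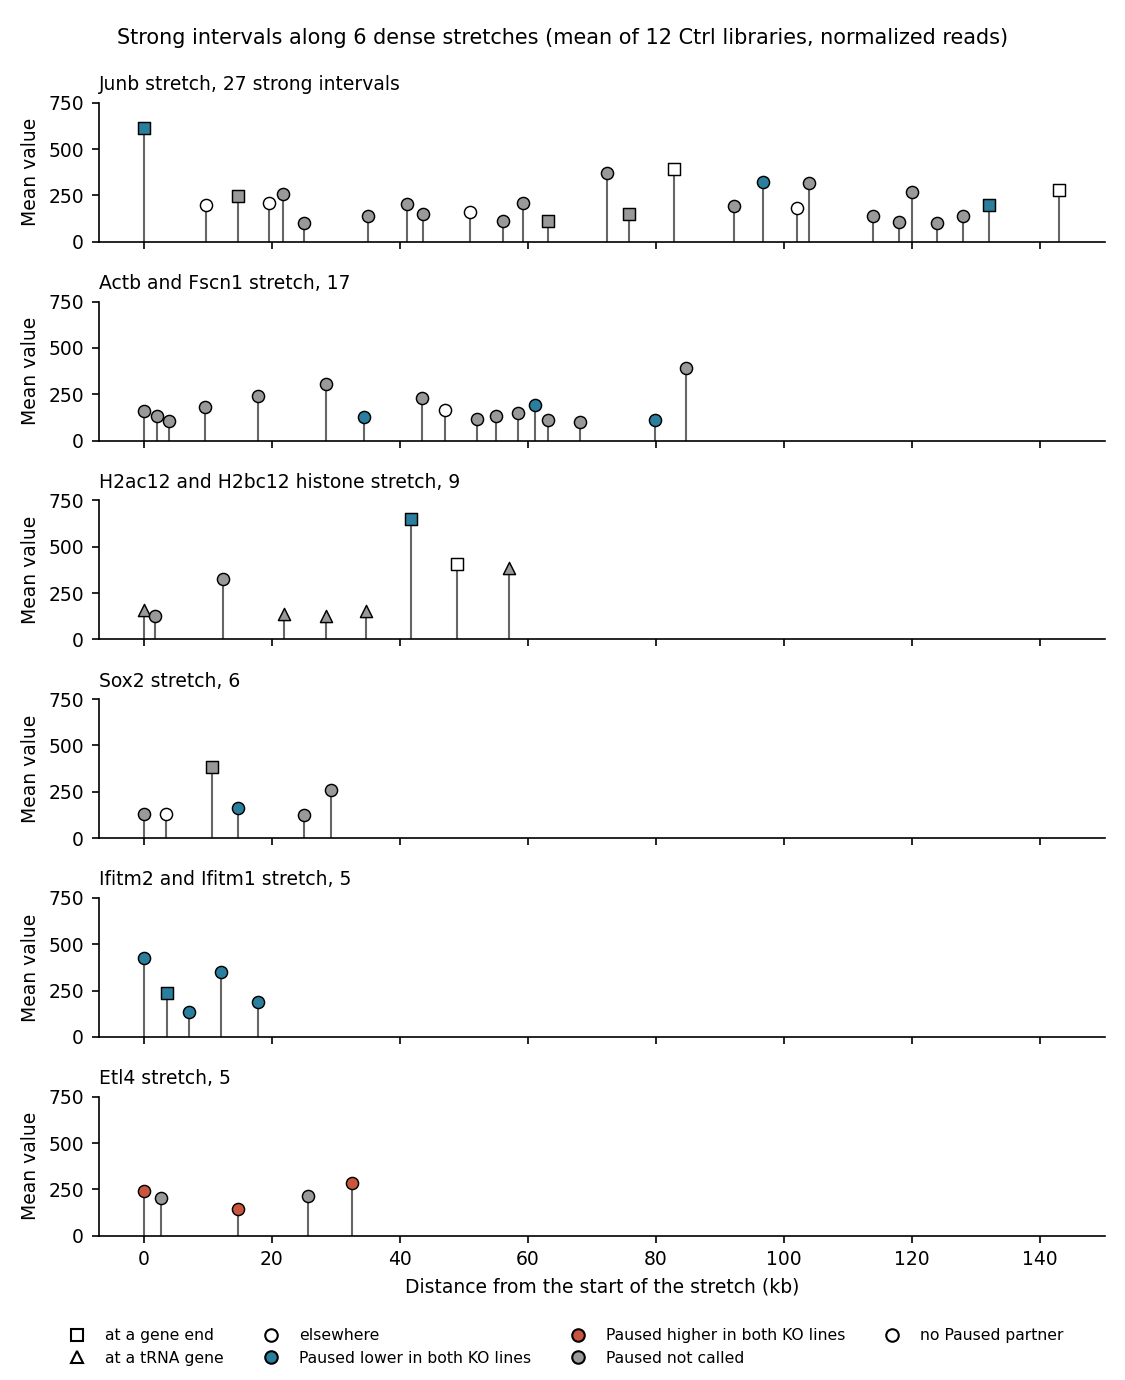
Members along 6 dense stretches. The x axis is the distance from the start of the stretch in kb and the y axis the mean over the 12 Ctrl libraries in normalized reads; squares lie at gene ends, triangles at tRNA genes, and the fill gives the KO against WT call of the Paused partner. All 5 members of the Ifitm2 stretch were lower in both KO lines, 3 of 5 members of the Etl4 stretch were higher, and in the 27-member Junb stretch 3 of 21 matched members were lower.

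The members that lay on promoters are shown by their sequence, because the stretches differ in the kind of promoter they hold. The bases below are the part of the member upstream of the gene's start, on the gene's strand, from RefSeq on GRCm38.p6 (the build of the mm10 intervals). Capitals mark exact matches, on either strand, to the motifs searched. These were CCAAT of the factor NF-Y, GGGCGG of the Sp and Klf factors, CCGGAAG of the ETS factors and CACGTG of Myc and USF. The others were TATAAA of the TATA box, the octamer ATGCAAAT of the Oct factors, the Smad element GTCTAGAC and the NRF1 motif. A match is a description of the letters and does not show a bound factor. First are 3 promoters of replication-dependent histone genes, which make the core histones during DNA replication, each with several CCAAT letters.
H2bc12 (chr13:22035672-22035820, plus strand, member mean 647): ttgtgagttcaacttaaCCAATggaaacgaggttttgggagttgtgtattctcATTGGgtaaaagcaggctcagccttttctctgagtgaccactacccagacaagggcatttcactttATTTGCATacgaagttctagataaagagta
H2bc11 (chr13:22042955-22043155, plus strand, member mean 408): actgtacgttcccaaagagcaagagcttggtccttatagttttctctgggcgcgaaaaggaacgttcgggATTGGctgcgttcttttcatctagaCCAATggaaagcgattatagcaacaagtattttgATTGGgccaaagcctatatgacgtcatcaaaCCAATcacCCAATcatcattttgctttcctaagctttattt
H3c8 (chr13:23535187-23535387, plus strand, member mean 548): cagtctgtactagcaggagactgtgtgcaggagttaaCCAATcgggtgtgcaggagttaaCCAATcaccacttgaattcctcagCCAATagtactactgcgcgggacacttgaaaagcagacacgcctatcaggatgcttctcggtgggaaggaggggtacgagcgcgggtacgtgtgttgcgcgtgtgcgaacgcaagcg
The H2bc11 bases lie between the divergent genes H2bc11 and H2ac11 and hold 5 CCAAT matches in 201 bases, at 41.8% GC. The H2bc12 bases, at 40.9% GC, hold the octamer as its reverse complement ATTTGCAT beside CCAAT on both strands.

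Promoters of 4 genes tied to pluripotency came next: Sox2, a core pluripotency factor, Fgf4, the growth factor that Oct4 and Sox2 switch on, Etv5, an ETS factor of the naive state, and Utf1, a chromatin protein of stem cells.
Sox2 (chr3:34649829-34649994, plus strand, member mean 383): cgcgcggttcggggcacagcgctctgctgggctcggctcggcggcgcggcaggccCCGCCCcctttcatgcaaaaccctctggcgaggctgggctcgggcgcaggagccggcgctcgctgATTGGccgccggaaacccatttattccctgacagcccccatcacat
Fgf4 (chr7:144861162-144861362, plus strand, member mean 261): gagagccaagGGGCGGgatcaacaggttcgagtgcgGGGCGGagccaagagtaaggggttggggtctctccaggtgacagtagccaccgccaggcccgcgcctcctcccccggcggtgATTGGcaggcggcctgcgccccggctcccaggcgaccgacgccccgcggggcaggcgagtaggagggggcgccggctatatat
Etv5 (chr16:22439629-22439820, minus strand, member mean 619): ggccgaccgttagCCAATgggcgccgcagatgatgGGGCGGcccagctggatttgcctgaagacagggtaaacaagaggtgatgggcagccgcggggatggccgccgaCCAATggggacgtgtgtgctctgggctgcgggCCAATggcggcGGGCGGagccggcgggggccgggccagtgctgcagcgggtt
Utf1 (chr7:139943667-139943855, plus strand, member mean 396): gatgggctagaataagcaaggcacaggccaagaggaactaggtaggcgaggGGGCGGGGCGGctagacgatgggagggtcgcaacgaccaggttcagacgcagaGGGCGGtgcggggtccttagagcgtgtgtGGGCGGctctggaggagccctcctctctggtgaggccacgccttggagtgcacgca
These are GC-rich, from 65.1% in Utf1 to 71.6% in Fgf4, and all 4 carry GGGCGG letters on a strand. Utf1 has 4 matches, of which the first 2 overlap.

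The strongest member of all lay at the promoter of Pa2g4, which encodes a nucleolar regulator of ribosome production and growth, and Stub1, a ubiquitin ligase of protein quality control, had a promoter with the letters of the Myc, ETS and Sp motifs.
Pa2g4 (chr10:128566013-128566184, minus strand, member mean 868): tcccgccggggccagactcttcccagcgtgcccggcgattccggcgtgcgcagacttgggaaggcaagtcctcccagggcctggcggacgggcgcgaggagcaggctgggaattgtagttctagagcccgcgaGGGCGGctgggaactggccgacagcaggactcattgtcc
Stub1 (chr17:25832920-25833102, minus strand, member mean 357): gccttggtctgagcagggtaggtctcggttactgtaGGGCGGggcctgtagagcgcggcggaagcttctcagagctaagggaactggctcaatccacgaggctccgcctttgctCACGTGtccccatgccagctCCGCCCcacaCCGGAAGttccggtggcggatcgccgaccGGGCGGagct
Over all members that reached a promoter window (250 bases before to 50 after a start), 582 windows of 542 genes, the median GC content was 61.2% with 20 CpG, against 63.0% with 23 for single strong intervals and 56.3% with 13 over all 21263 windows of the table. CCAAT letters stood in 46.6% of the members' windows, 43.2% of those of single strong intervals and 38.2% of all. GGGCGG stood in 69.4%, 72.5% and 46.2%, CCGGAAG in 22.5%, 21.5% and 11.6%, and CACGTG in 11.0%, 10.1% and 7.84%. TATAAA stood in 5.15%, 5.22% and 12.6%. The octamer ATGCAAAT, with 1.37%, 1.49% and 1.66%, and GTCTAGAC, with 0.344%, 0.111% and 0.226%, were rare in each set.

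The stretches held all or part of 1083 protein-coding genes, which is 71.4 genes per Mb against 8.61 per Mb over the autosomes. A gene that only partly overlapped a stretch was counted in full, which raises the first density, so these are unlike measures. The median stretch held 2 genes, 39 stretches held none, and the most in a stretch was 21. Of 33 pluripotency genes, 6 (18.2%) lay in dense stretches: Sox2, Fgf4, Etv5, Utf1, Spry4, a feedback inhibitor of FGF signalling, and Trim28, a corepressor that silences retroviral elements. Of 19 Nodal pathway genes 1 did (5.26%), namely Foxh1, the DNA-binding partner of Smad2. The share was 5.24% over all 20665 protein-coding genes. Junb and Bcl3, a target of Stat3 and a cofactor of NF-kB, were the 2 of 10 LIF pathway genes held. The lists of replication-dependent histones (11 of 68, 16.2%, in 2 stretches), cytosolic ribosomal proteins (8 of 86, 9.30%, in 8 stretches), Hox genes (4 of 39, 10.3%, in 1 stretch) and clustered protocadherins (18 of 58, 31.0%, in 1 stretch) rest on gene clusters to different degrees, so these shares do not count independent loci. Ier3 and Mycl were the 2 of 9 immediate early and growth genes held.

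The largest stretches lay in gene-dense neighbourhoods. The first, with 27 members over 143 kb at chr8:84893741-85037227, held Junb, the erythroid factor gene Klf1, the peroxidase gene Prdx2, Dnase2a, Gcdh and 8 other genes. The next held Lmna, for nuclear lamins, with Lamtor2, a subunit of the complex that brings mTOR to lysosomes (18 members, chr3:88458815-88562309). Actb and Fscn1, for actin and an actin-bundling protein, lay in a stretch of 17 members (chr5:142877422-142962223). A stretch of 15 members held Nprl2, an inhibitor of mTORC1, with Rassf1 and the hyaluronidase genes Hyal1, Hyal2 and Hyal3 (chr9:107514658-107612978). The stretch of Pa2g4, Erbb3 and Rpl41 had 13 members (chr10:128518917-128612964). Gene-free stretches were not always small, since 1 of them had 11 members.

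By place, 25.0% of members lay at gene ends, 42.0% inside gene bodies, 31.0% between genes and 1.93% within 500 bases of a tRNA gene. The same shares in single strong intervals were 28.9%, 36.1%, 34.9% and 0.176%. The 53 members at tRNA genes lay in 19 stretches, and 20 stretches held 98 of the 391 autosomal tRNA genes, for 19 amino acids. Of 139 tRNA genes with a strong interval, 60 (43.2%) had a member. On chromosome 13, 5 stretches between 21222506 and 23507320, beside the large histone cluster, held 58 tRNA genes and 31 of these members. The authors' read placement among near-identical tRNA copies is not given in the sources used here, so single tRNA genes are uncertain. Of miRNA genes, 41 hairpins lay in 33 stretches and 10 had a member within 500 bases, among them the neighbours Mir212 and Mir132.

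The members at tRNA genes stood apart between the tables. Only 38 of 53 (71.7%) had a partner in the Paused table, where 93.3% of all members did, and single strong intervals at tRNA genes had 78.6% against 96.4% of all singles. Over the same 38 members, the mean value relative to all 2569 matched members was 1.07 ± 0.0338 in the Ctrl libraries and 0.728 ± 0.0106 in the Paused libraries (SD, n = 12). The Ctrl libraries ranged from 0.986 to 1.10 and the Paused libraries from 0.718 to 0.747, and they did not overlap in any line. In the 22 matched single strong intervals at tRNA genes the same ratio, to matched singles, was 1.29 ± 0.0369 and 1.13 ± 0.0208. Members at gene ends had 1.31 ± 0.0297 and 1.34 ± 0.0310, members in gene bodies 0.909 ± 0.00638 and 0.919 ± 0.00984, and members between genes 0.870 ± 0.0166 and 0.849 ± 0.0154. The tables were counted and normalized separately on intervals of their own, so this is set side by side without a test. The stretch of 11 members that holds Zfp184 and 16 tRNA genes (chr13:21897002-21945213) had sums of 3447, 3241, 3256 and 3197 in the Ctrl WT libraries and 2450, 2142, 2155 and 2303 in the Paused WT libraries, the latter over 10 matched members.

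**Figure D2:**
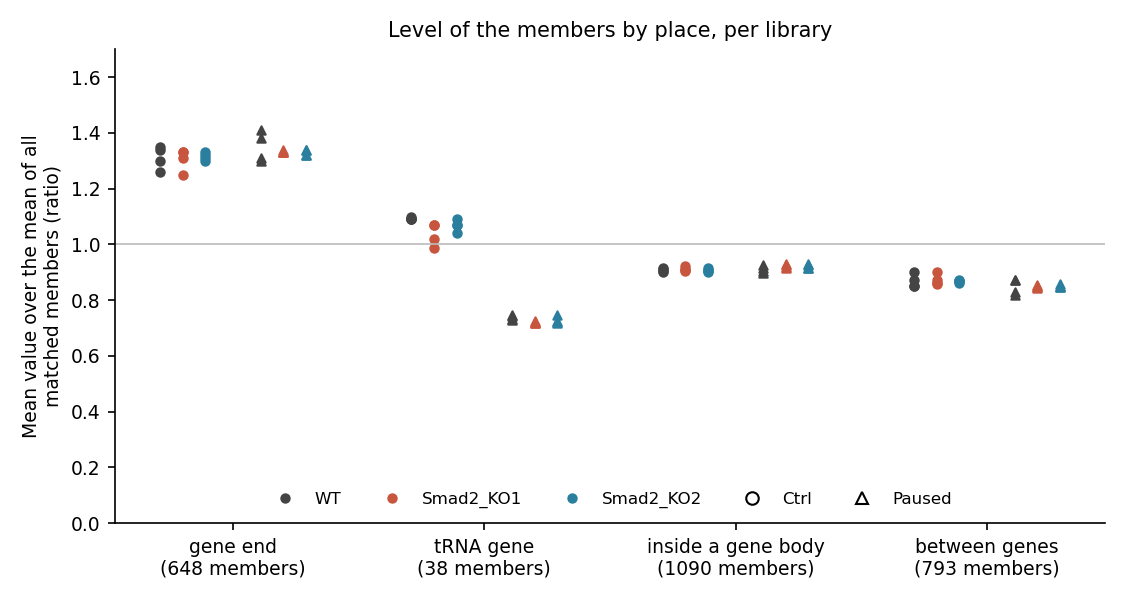
Level of matched members by place in each library. The y axis is the mean value of the members at a place divided by the mean of all 2569 matched members of the same library; each point is 1 library, circles Ctrl and triangles Paused. Members at tRNA genes lay between 0.986 and 1.10 in Ctrl and between 0.718 and 0.747 in Paused.

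The first comparison asked what loss of Smad2 changed at these sites in cells without inhibitor. All 2753 members were tested in a fit over 282089 intervals, and an interval was called where both KO lines differed from WT in the same direction at an adjusted p under 0.05 (limma on log2(value + 1), Benjamini-Hochberg adjustment). Of the members 210 (7.63%) were called, 53 higher and 157 lower, against 7.15% of all intervals tested. Single strong intervals weighted to the same mean levels had 9.11% called. The median log2 change (the mean of both KO lines against WT) was -0.080 in members and -0.057 in the weighted singles, and 2001 members (72.7%) were below 0. The split of calls turned with the scaling: with loess offsets along the mean level 112 members were called higher and 94 lower, and with DESeq2 size factors 31 and 319. The share called was 4.90% without WT replicate 4, 4.98% without Smad2_KO1 replicate 1 and 5.05% without Smad2_KO2 replicate 1. Over all intervals 3.95% were called higher and 3.20% lower.

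In the Paused libraries the same comparison gave more calls. Of 2569 matched members 596 (23.2%) were called, 46 higher and 550 lower, against 13.9% of all intervals and 20.7% of weighted singles. The median log2 change was -0.168 in members and -0.136 in weighted singles, and 2126 members (82.8%) were below 0. Over all intervals of the Paused table the calls leaned the other way, with 9.01% higher and 4.92% lower. With loess offsets along the mean level 137 members were called higher and 156 lower, and the share called fell to 11.4%, below the 15.3% of weighted singles. With size factors 26 were higher and 1071 lower. In these 2 comparisons WT libraries are separate for Ctrl and Paused. Of 143 matched members lower in Ctrl, 115 were lower in Paused and all 143 had the same sign. Of 52 matched members higher in Ctrl, 25 were higher in Paused and 50 had the same sign. Across the 2569 members the log2 changes in Ctrl and in Paused had a Pearson r of 0.780 and a Spearman rho of 0.690, as a description of intervals that share their libraries.

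The distance to single intervals grew with the level in the Paused libraries. Among intervals in the lowest of 6 level bins, 11.9% of members and 13.3% of singles were lower. Among those of 300 to 500 it was 34.6% of members and 23.1% of singles. At 500 or more it was 44.0% of members (40 of 91) and 19.9% of singles (98 of 493). The median log2 change in that last level was -0.201 in members and -0.145 in singles. In Ctrl the shares lower were 3.66% and 3.08% at 300 to 500. At 500 or more they were 3.30% and 0.402%, which is only 3 of 91 members and 2 of 497 singles. The differences between members and singles were not tested, since the members were chosen with results known.

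**Figure D3:**
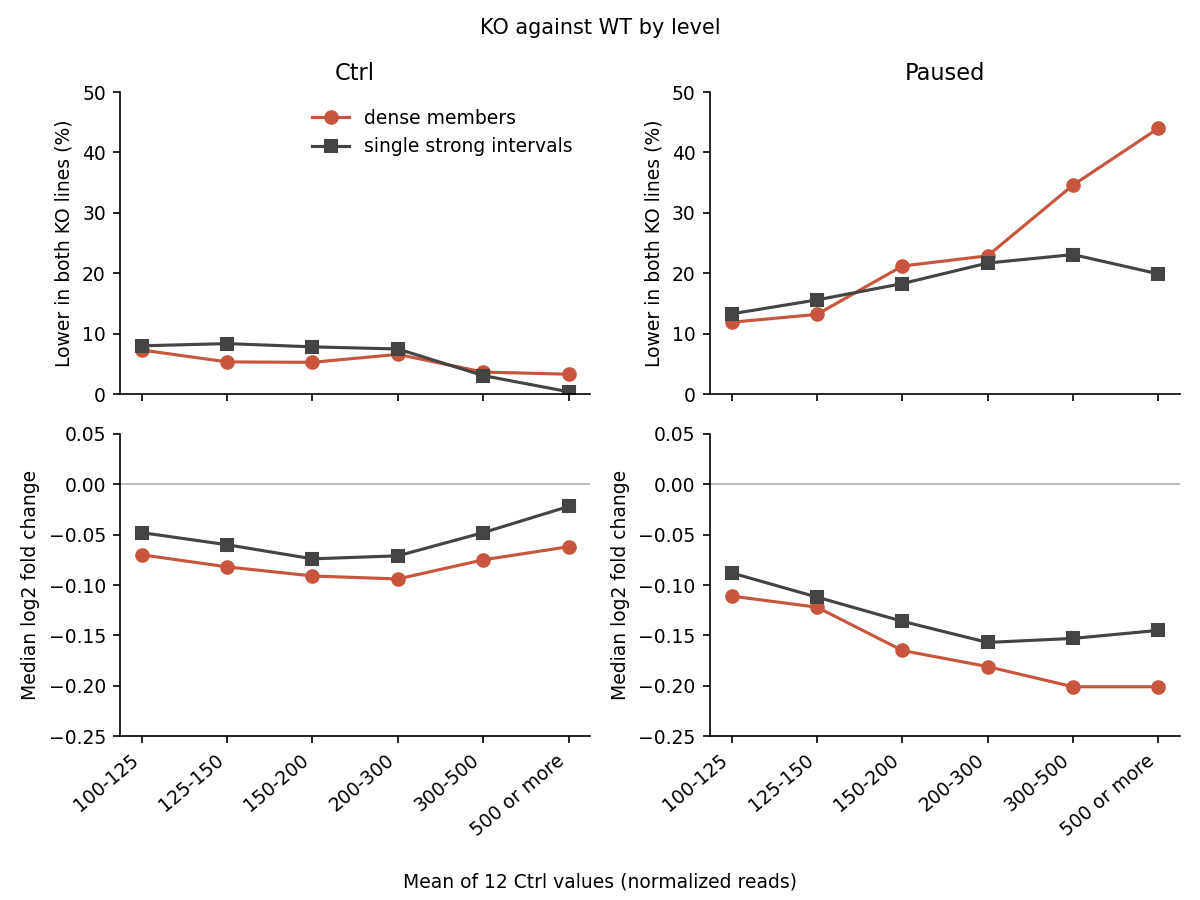
KO against WT by mean level. The x axis is the mean of the 12 Ctrl values in normalized reads, the upper panels give the percent of intervals lower in both KO lines and the lower panels the median log2 change, for dense members and single strong intervals in Ctrl and Paused. At 500 or more 44.0% of members and 19.9% of singles were lower in Paused.

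By place, the largest gap in the share lower in Paused under the deposited scaling was at gene ends. There, 24.2% of the 648 matched members at gene ends were lower and 10.7% of the 4426 singles there, while inside gene bodies it was 19.2% and 19.5% and between genes 22.4% and 22.6%. Strong intervals at gene ends in stretches of 2 to 4 had 16.7% lower. The singles at each place were not weighted by level. The median log2 changes in Paused were lower in members at each of these places: -0.188 and -0.134 at gene ends, -0.151 and -0.128 in gene bodies and -0.163 and -0.138 between genes. In Ctrl fewer members than singles were lower in gene bodies (5.53% and 8.81%) and between genes (8.31% and 9.63%). With loess offsets the same held in Paused, with 5.78% and 10.6% in gene bodies and 8.45% and 13.1% between genes. With size factors the shares lower in Paused were 50.9% and 29.8% at gene ends, 37.3% and 32.6% in gene bodies and 40.1% and 36.2% between genes. With loess offsets those at gene ends were 3.86% and 1.31%, with 2.62% and 6.06% higher. In Ctrl 2.90% of members at gene ends and 1.59% of singles were lower. Base composition moved with it. Among members on promoter windows the share lower in Paused was 39.4% where the GC content was under 55% and 9.43% where it was 70% or more. Among single strong intervals it was 19.3% and 5.20%. The part of GC content in the difference was not tested. At tRNA genes 51 of 53 members were below 0 in Ctrl, with a median log2 change of -0.166 and 2 calls (3.77%). In Paused 36 of 38 were below 0, with a median of -0.216 and 6 calls (15.8%), all lower. Over all intervals 7.15% were called in Ctrl and 13.9% in Paused. Strong intervals at tRNA genes outside dense stretches also fell under the deposited scaling. For stretches of 2 to 4 the median was -0.139 without inhibitor and -0.204 with it, where 20.7% were lower. For singles it was -0.084 and -0.142, with 13.6% lower in Paused. With loess offsets members were at -0.094 and -0.134 and singles at 0.009 in both.

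Library by library the separation of members from singles was small. The median log2 value of members minus that of level-weighted singles, each against the WT mean, was -0.0240 to 0.0280 in the Ctrl WT libraries. It was -0.0490 to -0.0170 in Smad2_KO1 and -0.0380 to 0.0330 in Smad2_KO2, so the groups overlapped. In Paused it was -0.0170 to 0.0180 in WT, -0.0400 to -0.0210 in Smad2_KO1 and -0.0500 to -0.00900 in Smad2_KO2. There all 8 KO libraries were below 0, and 1 of the 4 Smad2_KO2 libraries lay inside the WT range. The WT mean is near 0 because the WT libraries are their own reference. The fitted difference between members and weighted singles was -0.023 in Ctrl and -0.033 in Paused.

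**Figure D4:**
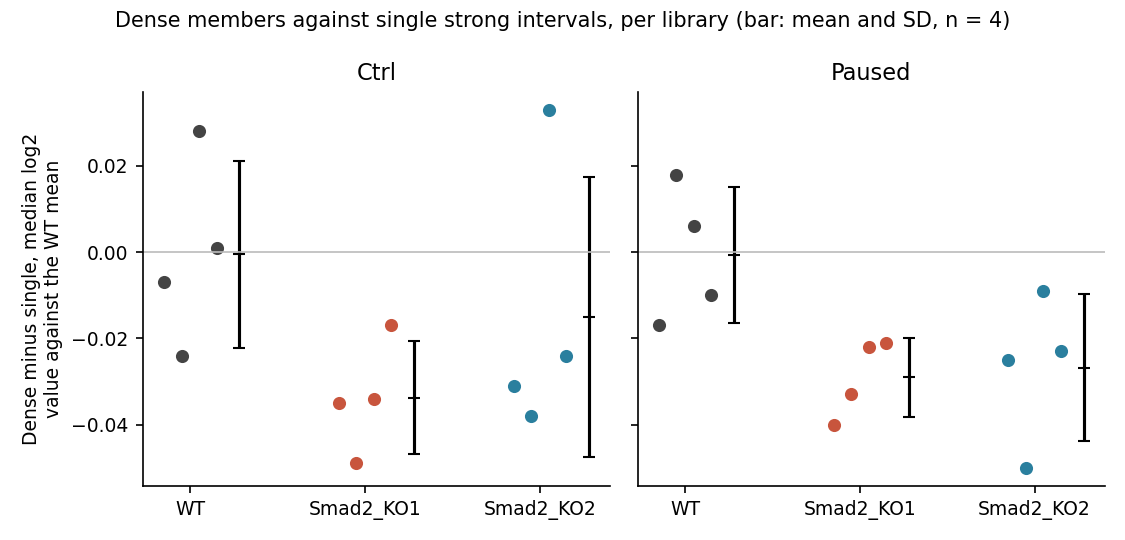
Dense members against single strong intervals in each library. The y axis is the median log2 value of members minus that of singles at the same levels, relative to the WT mean; points are libraries and bars the mean and SD of 4. The Paused KO libraries lie between -0.0500 and -0.00900 and the WT libraries between -0.0170 and 0.0180.

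Summed over its members, each stretch was then tested as 1 feature in a fit over all 21860 joined stretches, singles included. The rule used the same Ctrl values, so members high only in WT or only in the KO lines could bring a stretch over its limits. In Ctrl 47 of 443 dense stretches (10.6%) were called in both KO lines, 42 lower and 5 higher, against 8.98% of all stretches, of which 6.95% were lower and 2.03% higher. In Paused 263 (59.4%) were called, 262 lower and 1 higher, against 26.7% of all, 24.4% lower and 2.28% higher. The share in Paused rose with the number of strong intervals, from 23.5% for 1 over 29.7%, 37.2% and 47.9% for 2, 3 and 4 to 59.4%. Over the same steps the median log2 change moved from -0.133 to -0.172 and the median standard error from 0.102 to 0.055, so a longer sum was also measured more precisely. The median log2 change over all stretches was itself below 0, at -0.064 in Ctrl and -0.141 in Paused. Size factors computed on the stretches brought the Paused median to 0.004 and left 62 lower and 24 higher stretches (19.4%, against 13.5% of all). Loess offsets left 37 lower and 35 higher. In Ctrl, size factors gave 25 lower and 18 higher. Relative to the median of all stretches, 272 dense stretches (61.4%) lay lower in Ctrl and 280 (63.2%) in Paused. Lower in all 3 scalings were 23 stretches in Ctrl and 37 in Paused, and higher in all 3 were 5 and 1. Of the 42 stretches lower in Ctrl, 41 were also lower in Paused. The Ctrl count depended on single libraries: it was 81 stretches (18.3%) without WT replicate 3, 19 (4.29%) without WT replicate 1 and 16 (3.61%) without WT replicate 4. It was 20 (4.51%), 25 (5.64%), 30 (6.77%) and 30 (6.77%) without Smad2_KO2 replicates 1 to 4, and 28 (6.32%), 30 (6.77%) and 29 (6.55%) without Smad2_KO1 replicates 1, 2 and 4.

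The stretches that fell most hold genes of unrelated roles. They and the higher stretches named below were picked for the largest called changes in each treatment. Their changes and p-values are thus extremes of the same tests and are given as a description. Those in Ctrl also rest on values that the rule used. In the stretch of Ifitm2 and Ifitm1, for interferon-induced membrane proteins that block virus entry (chr7:140955938-140973900, 5 members), the Paused sums were 1706, 1761, 1483 and 1606 in WT. They were 1297, 1163, 1185 and 1287 in Smad2_KO1 and 1195, 1111, 1210 and 1280 in Smad2_KO2. All 8 KO libraries lay below all WT libraries, and all 5 members were lower. Relative to WT this was -0.41 and -0.45 on the log2 scale, with an SE of 0.06 and adjusted p of 1.45e-05 and 4.02e-06 in limma. They were -0.24 and -0.27 with loess offsets. In Ctrl the sums of this stretch were 1524, 1361, 1473 and 1358 in WT, 1267, 1266, 1279 and 1324 in Smad2_KO1 and 1306, 1225, 1276 and 1309 in Smad2_KO2. The KO libraries were again below WT, but with log2 changes of -0.15 and -0.16 the stretch was not called (limma adjusted p 0.0719 and 0.0547). Whether the change differed between Ctrl and Paused was not tested.

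Tanc1, a scaffold protein of synapses, lies over a stretch of 6 members (chr2:59603154-59634155). Its Paused sums were 1195, 1167, 1030 and 1237 in WT, 859.0, 841.9, 861.2 and 942.6 in Smad2_KO1 and 839.0, 843.7, 856.5 and 877.4 in Smad2_KO2, with no overlap between WT and KO. The log2 changes were -0.40 and -0.43 in Paused and -0.27 and -0.32 in Ctrl (limma adjusted p 3.2e-05 and 1.19e-05, and 0.00205 and 0.000417). Of its 6 members 4 were lower in Paused and 2 in Ctrl.

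The stretch of the splicing factor gene Cwc25, the ribosomal protein gene Rpl23 and Lasp1 (chr11:97766548-97808259, 6 members, 3 tRNA genes) had Ctrl sums of 1288, 1245, 1190 and 1226 in WT. The KO sums were 982.3, 947.9, 988.6 and 1049 in Smad2_KO1 and 1041, 962.9, 1027 and 1028 in Smad2_KO2, again without overlap. Its log2 changes were -0.32 and -0.29 in Ctrl and -0.38 and -0.37 in Paused (limma adjusted p 0.000336 and 0.000929, and 5.15e-05 and 5.3e-05).

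Mtch1, a mitochondrial outer membrane protein, shares a stretch of 5 members with Fgd2 (chr17:29347844-29369033). The Ctrl sums were 985.9, 861.7, 881.6 and 978.1 in WT, 807.0, 629.2, 764.7 and 724.3 in Smad2_KO1 and 773.6, 728.1, 758.5 and 687.3 in Smad2_KO2. Every KO library was below every WT library, with log2 changes of -0.34 and -0.33 in Ctrl and -0.34 and -0.34 in Paused (limma adjusted p 0.00164 and 0.00211, and 0.000121 and 9.47e-05). A similar size was measured in the stretch of Rela, a subunit of NF-kB, and Sipa1, an activator of Rap GTP hydrolysis (chr19:5629975-5663818, 5 members). In Ctrl the sums were 1015, 916.3, 895.9 and 1014 for WT, 774.5, 670.3, 798.4 and 792.4 for Smad2_KO1 and 816.7, 729.9, 796.8 and 749.8 for Smad2_KO2. Its log2 changes were -0.34 and -0.31 in Ctrl and -0.31 and -0.34 in Paused. The stretch of Aplp1, a relative of the amyloid precursor, with Nphs1 and Kirrel2 (chr7:30435289-30463883, 6 members) was lower in Ctrl by the same size, with log2 changes of -0.31 and -0.31. Only 3 of its members had Paused partners, where it had -0.20 and -0.20, a call that was lost under both other scalings and when any 1 of 8 libraries was left out, with mean log2 changes of -0.20 to -0.13. The calls of Ifitm2, Tanc1, Cwc25, Mtch1 and Sipa1 in Paused, and of Tanc1, Cwc25, Mtch1, Sipa1 and Aplp1 in Ctrl, held in all 3 scalings and without any single library.

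Higher stretches were few. Etl4, also called Skt, a gene named after an enhancer trap, lies over 5 members (chr2:20493904-20526552). Its Ctrl sums were 951.7, 940.5, 968.1 and 930.7 in WT, 1163, 1201, 1206 and 1168 in Smad2_KO1 and 1189, 1142, 1162 and 1080 in Smad2_KO2. All KO libraries were above all WT libraries, by 0.32 and 0.27 on the log2 scale, with an SE of 0.06 and adjusted p of 0.000233 and 0.00126 in limma. The Paused changes were 0.22 and 0.25, it was the 1 dense stretch called higher, and 3 of its 5 members were higher in each treatment. Impa2, an inositol monophosphatase (chr18:67258525-67304788, 8 members), had log2 changes of 0.23 and 0.21 in Ctrl, with 7 of 8 KO libraries above all WT libraries. That call was lost without WT replicate 3 (mean log2 change 0.17), Smad2_KO1 replicate 1 (0.21), or Smad2_KO2 replicate 1 (0.22) or 3 (0.21). A gene-free stretch of 5 members nearest to H2al2a (chr2:17970317-17989359) had log2 changes of 0.24 and 0.20 in Ctrl and of 0.06 and 0.06 in Paused. Its member starting at chr2:17978317 had Ctrl values of 67.18 to 98.27 in WT and 112.7 to 180.6 in the KO lines. That member entered through the KO libraries, and without it the stretch would miss the limit of 5, so its Ctrl change is a description. The Ctrl call of the stretch was lost when any 1 of 7 libraries was left out, with mean log2 changes of 0.19 to 0.23. The Impa2 and H2al2a stretches were not called in Paused under the deposited scaling but were higher there with size factors and with loess offsets.

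**Figure D5:**
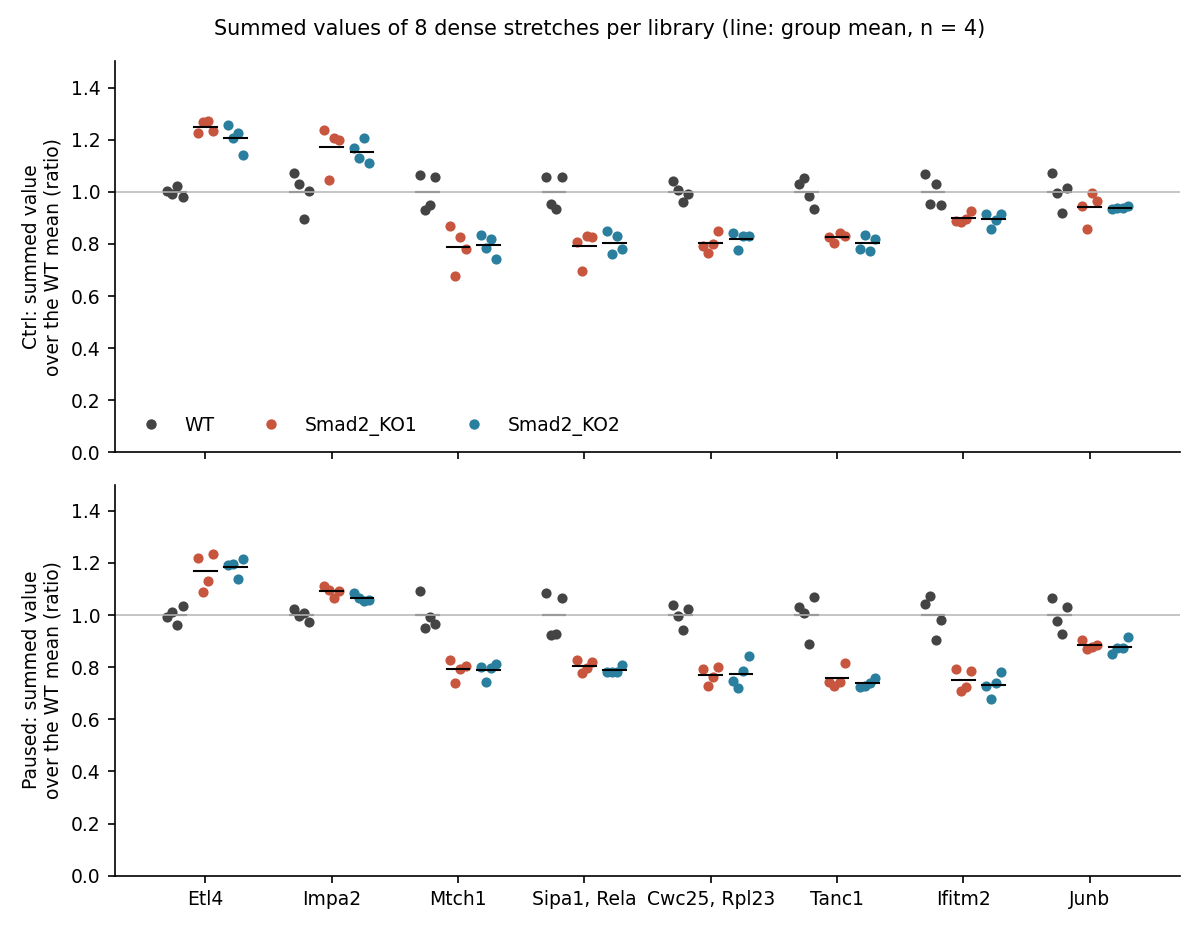
Summed values of 8 dense stretches in each library, divided by the mean of the 4 WT libraries of the same treatment; lines are group means. The Etl4 KO libraries lie above all WT libraries in both panels, and the Mtch1, Sipa1, Cwc25 and Tanc1 KO libraries below all WT libraries.

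Of the 10 stretches with the most members (among the 10 that tie at 11 members, those of Mpv17l2 and Zfp184 with the highest summed levels), none was called in Ctrl. In Paused 9 were lower under the deposited scaling, the exception being that of Ehd2, a membrane-shaping ATPase (log2 changes of -0.07 and -0.07). The Junb stretch had Paused sums of 6279, 5748, 5469 and 6072 in WT, 5333, 5135, 5173 and 5216 in Smad2_KO1 and 5022, 5144, 5150 and 5399 in Smad2_KO2. All KO libraries were below WT, by -0.17 and -0.18 on the log2 scale (limma adjusted p 0.000464 and 0.000246), against a median of -0.141 over all stretches. With size factors none of the 10 was called, and with loess offsets the Junb, Lmna, Nprl2, Pa2g4 and Zfp184 stretches turned to small positive changes while the Ehd2 stretch was called higher. The Zfp184 call was also lost without WT replicate 1 (-0.12), Smad2_KO1 replicate 2 (-0.14) or Smad2_KO1 replicate 3 (-0.15). At the Pa2g4 promoter, the strongest member, the Ctrl values were 903.6, 907.4, 748.0 and 881.0 in WT, 868.6, 814.2, 999.9 and 889.5 in Smad2_KO1 and 836.7, 883.7, 800.0 and 887.6 in Smad2_KO2. The groups overlapped fully, and the interval was not called in Ctrl (log2 changes of 0.05 and -0.01) or in Paused (-0.11 and -0.10) under the deposited scaling. With loess offsets it was called higher in both, with mean log2 changes of 0.17 and 0.18.

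Of the 6 stretches with pluripotency genes none was called in Ctrl, and 2, those of Etv5 and Sox2, were lower in Paused, where 59.4% of all dense stretches and 26.7% of all stretches were called. The Etv5 stretch (chr16:22411828-22439829, 5 members) had Paused sums of 1590, 1433, 1510 and 1626 in WT, 1403, 1217, 1352 and 1362 in Smad2_KO1 and 1246, 1248, 1282 and 1422 in Smad2_KO2. The groups did not overlap, and the log2 changes were -0.21 and -0.25 (limma adjusted p 0.00705 and 0.00181). The Sox2 stretch (chr3:34639333-34668740, 6 members) had 1511, 1310, 1185 and 1463 in WT, 1270, 1116, 1116 and 1276 in Smad2_KO1 and 1221, 1069, 1231 and 1279 in Smad2_KO2. Here the groups overlapped, the log2 changes were -0.19 and -0.18 (limma adjusted p 0.0368 and 0.04), and the call was lost when any 1 of 7 libraries was left out, with mean log2 changes of -0.19 to -0.14. Both calls were lost with size factors and with loess offsets. In Paused the Fgf4 stretch had log2 changes of -0.04 and -0.09, the Utf1 stretch of -0.12 and -0.21 and the Trim28 stretch of -0.10 and -0.14. The Spry4 stretch had -0.01 and 0.01 in the deposited scaling and was called higher in both other scalings (0.13 and 0.16 with size factors). The Utf1 stretch kept only 2 of its 5 members in the Paused table, without the Utf1 promoter shown above. The Fgf4 stretch kept 4 of its 5 members there, without the Fgf4 promoter shown above.

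The Foxh1 stretch (chr15:76639889-76683905, 6 members) had Ctrl sums of 1562 to 1837 for WT and of 1415 to 1729 over both KO lines, which overlapped. With log2 changes of -0.06 and -0.07 in Ctrl and -0.14 and -0.15 in Paused it was not called in either. Neither was the stretch of Bcl3, with -0.08 and -0.11 in Ctrl and -0.10 and -0.13 in Paused.

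Both histone stretches were lower in Paused and not called in Ctrl, against the same shares over all stretches. The one with the H2bc12 and H2bc11 promoters (chr13:21994035-22051195, 9 members, 9 tRNA genes) had Paused sums of 2195, 2063, 2048 and 2262 in WT, 1879, 1800, 1877 and 2009 in Smad2_KO1 and 1873, 1777, 1829 and 1930 in Smad2_KO2. These sums are over 8 matched members, without the H2bc11 promoter. The one with the H3c8 promoter (chr13:23535187-23562530, 5 members) had group means of 2609 ± 92.6, 2401 ± 86.4 and 2361 ± 143 (SD, n = 4), and in each stretch all 8 KO libraries lay below WT. Both calls were lost with size factors, where H3c8 turned to a mean log2 change of 0.01, and the H3c8 call was also lost when any 1 of 8 libraries was left out (-0.14 to -0.11). Histone copies are similar in sequence, so their single values are uncertain.

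Of 6 stretches with ribosomal protein genes, those of Rpl23 and Rpl22 were lower in Ctrl, and those of Rpl22, Rpl23 and Rpl41 in Paused, which is 3 of 6 against the 59.4% of all dense stretches. Those of Rps2, Rps27 and Rpl7l1 were called in neither. The Rpl22 stretch (chr4:152312261-152341223, 6 members) had log2 changes of -0.20 and -0.21 in Ctrl, a call lost when any 1 of 8 libraries was left out (-0.21 to -0.17), and of -0.20 and -0.23 in Paused. In Paused the Rpl23 stretch alone among these 6 was lower under both other scalings as well, and in Ctrl the Rpl22 and Rpl23 stretches were.

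The Hoxd stretch, over Evx2 and Hoxd13 to Hoxd10 (chr2:74655531-74691902, 5 members), had -0.10 and -0.08 in Ctrl and -0.07 and -0.12 in Paused. The protocadherin stretch of 8 members had -0.05 and -0.06 in Ctrl and -0.15 and -0.12 in Paused, and neither was called. The Ier3 stretch, with the tubulin gene Tubb5 and the DNA damage adaptor gene Mdc1 (chr17:35812848-35848407, 6 members), was lower in Paused only under the deposited scaling, with log2 changes of -0.21 and -0.24. The Mycl stretch was called in neither treatment (-0.11 and -0.16 in Paused).

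The single members with the largest changes are given next. The rule used the Ctrl values of these libraries, so their Ctrl changes are a description: 7 of the 8 higher intervals named here, all but that near Syt5, had a WT mean under 100 and entered through the KO libraries. Of the lower ones, those near Rbpms and Ier3 and inside Clmp had means under 100 in both KO lines and entered through WT. The Paused libraries took no part in the choice of members. The intervals named here were then picked for the largest called changes in each treatment, in Paused too. Their changes and p-values are thus extremes of the same tests and are given as a description. The largest rise was at an interval 14428 bases from Slc35b4, a nucleotide sugar transporter (chr6:34191482-34191682). Its Ctrl values were 57.68, 74.34, 67.90 and 57.16 in WT, 151.3, 189.2, 173.4 and 172.1 in Smad2_KO1 and 169.3, 151.1, 155.1 and 179.1 in Smad2_KO2. Every KO library was above every WT library by a wide margin, by 1.41 and 1.34 on the log2 scale. Its Paused values were 56.13, 52.60, 65.81 and 92.70 in WT, 153.0, 136.8, 161.5 and 179.8 in Smad2_KO1 and 159.8, 179.2, 168.4 and 203.5 in Smad2_KO2, with log2 changes of 1.26 and 1.43, an SE of 0.13 and adjusted p of 1.86e-08 and 1.63e-09 in limma. A second member of the same stretch, at chr6:34189765-34189965, had log2 changes of 0.71 and 0.78 in Ctrl.

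The largest fall in Paused by the smaller of the 2 line changes was at an interval 31026 bases from Usp7, a deubiquitinase that stabilises Mdm2 (chr16:8788093-8788293). Its Paused values were 202.9, 231.8, 222.2 and 207.9 in WT, 115.0, 97.87, 95.88 and 111.2 in Smad2_KO1 and 94.89, 101.2, 117.9 and 124.7 in Smad2_KO2. There was no overlap, with log2 changes of -1.04 and -0.98, an SE of 0.11 and adjusted p of 3.37e-08 and 1.21e-07 in limma. The Ctrl changes were -0.78 and -0.98. In Ctrl the largest fall was 44194 bases from Rbpms, an RNA-binding protein (chr8:33974116-33974316). The Ctrl values there were 185.8, 157.6, 170.8 and 171.5 in WT, 76.94, 89.44, 103.1 and 92.41 in Smad2_KO1 and 103.2, 95.56, 95.61 and 80.51 in Smad2_KO2, with log2 changes of -0.92 and -0.87. An interval 88851 bases from Myc, the growth regulator (chr15:62079212-62079412), had Ctrl values of 166.6, 161.2, 188.4 and 170.4 in WT, 84.63, 112.1, 96.52 and 107.4 in Smad2_KO1 and 98.20, 102.8, 93.49 and 110.7 in Smad2_KO2. It fell in Ctrl (-0.78 and -0.76) and in Paused (-0.79 and -0.74).

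Other members with large falls lay inside Clmp, a cell adhesion gene (chr9:40768008-40768208; -0.75 and -0.80 in Ctrl; in Paused 70.16 to 127.3 in WT and 37.19 to 62.99 in the KO lines), at the end of Zfp119b (chr17:55952088-55952288; -0.39 and -0.44, -1.01 and -0.88) and near Lrmda (chr14:22005067-22005267; -0.62 and -0.66, -0.91 and -0.87). Further falls were near Ier3, a stress response gene (chr17:35812848-35813048; -0.65 and -0.48, -0.97 and -0.92), and near H2-T-ps (chr17:36094018-36094218; -0.83 and -0.84, -0.76 and -0.61). Other rises lay near Zfp64 (chr2:168970282-168970482; 0.94 and 0.87 in Ctrl, 0.59 and 0.42 in Paused), near H2al2a (chr2:17978317-17978517; 0.86 and 0.90, 0.83 and 0.86) and inside Gpr20, an orphan receptor gene (chr15:73703856-73704056; 0.82 and 0.77, 0.55 and 0.62). The rest lay near Morc3, a nuclear ATPase that represses transcription (chr16:93821780-93821980; 0.70 and 0.72, 0.77 and 0.66), near Syt5, a synaptotagmin (chr7:4539102-4539302; 0.43 and 0.55, 0.66 and 0.65), and near Syne3, a nuclear envelope protein (chr12:104918040-104918240; 0.96 and 0.57, 0.64 and 0.68). All of these were called in both treatments under the deposited scaling and with size factors, and the Ier3 interval was not called in Ctrl with loess offsets. The Ctrl calls of the Syne3, Ier3 and Zfp119b intervals were lost without some single libraries: for Syne3 without WT replicate 4 (mean log2 change 0.56), for Ier3 without WT replicates 3 or 4 or Smad2_KO2 replicates 2 or 4 (-0.53 to -0.44), and for Zfp119b without WT replicates 1 or 3 or Smad2_KO1 replicates 1 or 4 (-0.40 to -0.38).

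Most of these intervals lay away from gene ends. Of the members lower in Ctrl 12.7% lay at gene ends, and of those lower in Paused 28.5%. Of the members higher in Ctrl 3.77% and of those higher in Paused 2.17% did. The median level was 129 in members higher in Ctrl, 174 in those lower in Ctrl, 123 in those higher in Paused and 228 in those lower in Paused, against 177 over all members.

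The measured changes of neighbouring members of a stretch were only weakly related. The log2 changes of neighbouring members had a Pearson r of 0.16 over 2310 pairs in Ctrl and 0.13 over 2014 pairs in Paused. In stretches of 2 to 4 it was 0.20 and 0.18, and between strong intervals that were not joined but lay within 50 kb it was 0.11 and 0.11. The SD of the log2 change within a stretch averaged 0.18 in Ctrl against 0.19 over all members, and 0.19 against 0.20 in Paused. The range within a stretch was 0.38 in Ctrl and 0.39 in Paused at the median. For single strong intervals the median SE of the change in a KO line was 0.111 in Ctrl and 0.102 in Paused. The part of measurement error in these spreads and correlations was not tested, so they do not show whether members changed together. In Ctrl 155 stretches had a called member, 46 had 2 or more and 8 had calls in both directions. In Paused it was 329, 175 and 23. The Ifitm2 stretch, with all 5 members lower in Paused, was the smallest of those with 5 called members, the most reached in that table.

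The dense stretches were mostly dense in the Paused table too. The same rule applied to that table gave 723 stretches with 4569 intervals, and 380 of the Ctrl stretches (85.8%) overlapped 381 of them (52.7%). All members were matched in 312 Ctrl stretches, and the fewest matched in a stretch was 2. Of the 184 members without a partner, 51 overlapped a Paused interval by less than 50%. Their median level was 159, against 179 for matched members. The ratio of the mean member to the mean single value was taken over matched intervals, with singles weighted to the members' Ctrl levels. That weighting largely sets the ratio in Ctrl. Within a library the ratio was 0.994 to 1.03 in Ctrl WT, 0.973 to 1.00 in Smad2_KO1 and 0.986 to 1.04 in Smad2_KO2. In Paused it was 1.04 to 1.06, 1.03 to 1.04 and 1.02 to 1.05, and the ranges of the lines overlapped or met in both tables.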

How the data were processed

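ATAC-seq signal was deposited by the authors as 1 table for the 12 Ctrl libraries and 1 for the 12 Paused libraries, each with a normalized read value per interval and library. The submitters' processing notes name FastQC, Trim Galore, Bowtie2 2.4.1, MACS3 3.0.3, DiffBind 3.16.0 and the mm10 build, without their settings. The deposited signal is a whole number of reads times a factor of each library, as checked on values up to 100 reads. Among these, whole reads came back for 100.0% in every library, where chance at the narrowest rounding tolerance gives at most 1.36%. Larger values were taken as whole reads without this check. The recovered reads gave the depths. The 2 tables were counted on different intervals and normalized separately, so tests were made only within a table.

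Members, gene lists and tests were chosen with earlier results of these data known. A Paused interval was a member's partner where they overlapped by 50% or more. Values were tested as log2(value + 1) with limma 3.58.1 (trended, R 4.3.3), over intervals with at least 10 in 4 libraries, with Benjamini-Hochberg adjustment over all of them and without covariates. Stretch sums were tested likewise, and size factors, TMM and loess offsets for stretches were computed on these sums rather than on all intervals. An interval or stretch was called where both KO lines differed from WT in the same direction at an adjusted p under 0.05. The level of single strong intervals was matched by weights over 6 level bins. The text names the 10 largest stretches, those holding a listed gene, the 3 highest and 3 lowest called stretches and the 5 highest and 5 lowest called members per treatment, ranked by the smaller of the changes in the KO lines, and the strongest member. The results of 2 stretches that hold a listed gene are not reported here. Other genes in the opening account of the stretches were chosen after their values were seen. Alternatives were DESeq2 1.42.0 size factors, TMM and loess offsets, no filter, a pseudocount of 0.1, a replicate block, averaged KO lines, edgeR 4.0.16 and DESeq2 on the recovered reads, each library left out, and other limits of the rule. The scripts were tested on simulated data. The sources used here do not say whether replicates were separate cultures, so p-values measure the spread between these libraries. Gene positions and promoters come from RefSeq (GRCm38.p6), where 17492 of 21887 protein-coding genes (79.9%) had a promoter sequence. Reads of near-identical histone and tRNA copies cannot be assigned with certainty.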

Additional observations from a re-analysis of the deposited data

Results flagged for a closer look

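In 13 of 333 groups of 4 libraries checked over the named stretches and intervals, a library lay far from the other 3 of its group, where chance marks about 1 in 20. In the Fgf4 stretch these were Ctrl Smad2_KO1 replicate 2 with a sum of 771.1, Ctrl Smad2_KO2 replicate 4 with 928.9 and Paused WT replicate 1 with 847.4. In the Utf1 stretch they were Ctrl WT replicate 4 with 984.6 and Paused Smad2_KO2 replicate 2 with 327.7. The stretch of Trim28, whose strongest member is nearest to Zbtb45, had Ctrl Smad2_KO2 replicate 3 at 2389. The Foxh1 stretch had Ctrl Smad2_KO1 replicate 2 at 1415, and the H2bc12 stretch had Ctrl Smad2_KO1 replicate 4 at 2652. The gene-free stretch near H2al2a had Paused Smad2_KO2 replicate 2 at 686.9, and the Sipa1 stretch had Paused Smad2_KO2 replicate 4 at 1029.

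Among single members, the interval near Zfp64 had Paused Smad2_KO1 replicate 3 at 205.6, and the interval inside Gpr20 had Paused Smad2_KO1 replicate 1 at 174.8. The Pa2g4 promoter had Ctrl WT replicate 3 at 748.0.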

How the results depend on the processing

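The size of the change in dense members depends on the scaling of the libraries: the median log2 change was -0.080, -0.151 with size factors and -0.007 with loess offsets in Ctrl, and -0.168, -0.272 and -0.021 in Paused. The share of members called in Ctrl (7.63%) was 12.7% with DESeq2 size factors, 12.4% with TMM and 12.7% with the KO lines averaged. Over all Ctrl intervals these shares were 7.58%, 7.51% and 12.4%. At a strong mean of 150 the share of members was 4.72%. With the KO lines averaged there is a single comparison with WT, so the rule of a call in both lines does not apply. In Paused (23.2%) the share of members called was 42.7% with size factors, 40.2% with TMM, 11.4% with loess offsets and 26.8% with the KO lines averaged. Over all Paused intervals it was 14.7%, 14.4%, 9.72% and 18.9%. The share of stretches called in Ctrl (10.6%) was 17.4% with the KO lines averaged, against 14.5% of all stretches, and 4.44% at a strong mean of 150. In Paused (59.4%) it was 57.1% with the KO lines averaged, against 29.4% of all stretches. It was 19.4% with size factors, 19.4% with TMM and 16.3% with loess offsets, against 13.5%, 13.6% and 13.9% of all stretches. These scalings were computed on the stretch sums and brought the median Paused change of all stretches to 0.004, 0.005 and 0.002. They are thus not the scalings of the same name in the interval results. The difference between members and singles in Paused (-0.033) was -0.016 where intervals were joined at 5 kb. In Ctrl (-0.023) it was -0.003 there, over 133 members. The cause of these moves was not tested.

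With 1 library left out, the share of Ctrl members called lay between 4.90% and 7.52%, and that of their Paused partners between 14.7% and 29.0%. For stretches it lay between 3.61% and 18.3% (Ctrl) and between 42.4% and 68.8% (Paused). The differences between members and singles ranged from -0.032 to -0.011 and from -0.038 to -0.025. Under a replicate block the shares were 8.21% and 28.3% of members and 10.4% and 67.0% of stretches, with differences of -0.023 and -0.033. The deviations of same-numbered libraries had correlations between -0.00568 and 0.109 in Ctrl. In Paused these lay between -0.00744 and 0.187. The numbers were not taken as pairs in the main fit. Same-numbered libraries of the 2 KO lines were nonetheless closer in Paused than any 2 libraries of 1 KO line.

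In Paused, the mean log2 change turned positive with loess offsets in the stretches of Gcdh (0.02, the Junb stretch), Lamtor2 (0.04), Tmem115 (0.01, the Nprl2 stretch), Pa2g4 (0.04), Zfp184 (0.02) and H3c8 (0.05). With size factors it did so in that of H3c8 (0.01). Of 22 named stretches called in Paused, size factors ended 15 other calls and loess offsets 10. All 9 named stretches called in Ctrl were also called under both.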
